A study of Mus musculus with 6 samples.

Results

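The 10 genes described here are the mouse p53 gene Trp53 and 9 genes that p53 is known to induce: Mdm2, Ccng1, Gtse1, Bbc3, Bax, Pmaip1, Phlda3, Sesn1 and Gdf15. They were chosen by name, with earlier results of these data known. Every non-control array probe whose RefSeq transcript belongs to one of them was taken, which gave 10 probes, 1 for each gene, each on 1 spot. Of 20659 genes named on the array, 15535 were tested, and these include 9 of the 10 members. The cells were of the mouse pre-osteoblast line MC3T3-E1, grown for 3 days in 24-well plates on a metal scaffold. For De-HA (n = 3) this scaffold was first dealloyed and given a bioactive coating, and for FeMnSi (n = 3) it was the original FeMnSi, written with the symbols of iron, manganese and silicon. The series title places the work in bone and vessel formation on this scaffold. The dealloying and the coating came together in De-HA, so their shares cannot be told apart, and no cells grown without a scaffold were compared. The labels do not say whether the 3 samples of a group came from separate cultures, so the p-values reflect the spread of these samples alone, and that spread may be technical.

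p53 is a transcription factor that is kept low in unstressed cells by the ubiquitin ligase Mdm2, itself a p53 target, and that accumulates after DNA damage, oncogene activity and other stresses. It then raises genes for cell cycle arrest, apoptosis, antioxidant defence and repair, and it lowers many genes of mitosis indirectly, through the cell cycle inhibitor p21 (Cdkn1a) and the DREAM repressor complex. p53 is controlled mainly at the level of its protein, which arrays do not measure. In the osteoblast lineage, p53 is known as a restraint on proliferation and differentiation.

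Levels are given as processed signal, the linear, background-subtracted spot brightness. For comparison they were put on the log2 scale relative to each array's own 75th percentile of signal, which ranged from 582 to 654 on the De-HA arrays and from 654 to 720 on the FeMnSi arrays. No spot was saturated, and 63.5% to 74.4% of probes were well above background per array. All 3 De-HA arrays and FeMnSi 1 shared 1 scan time, and FeMnSi 2 and 3 shared another. Each scan time is taken here as 1 slide, so slide and group are partly confounded. For that reason the log2 difference of each tested member, De-HA minus FeMnSi, is also given within the first slide, against FeMnSi 1 alone. Only some of the other genes carry this value. In a fit that leaves out FeMnSi 1, slide and group coincide, so passing there cannot separate the scaffold from the slide. All 12 osteoblast markers listed were tested, and each was read well above background on all arrays, so these transcripts were present. Their summed scaled signal, in multiples of the array's 75th percentile, was 298 to 342 in De-HA and 236 to 282 in FeMnSi. That sum is weighted towards the brightest markers.

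Of the 9 members tested, 1 rose and 2 fell in De-HA at an adjusted p of 0.05 (limma, Benjamini-Hochberg over all genes tested). Across all genes, 10.7% passed, 6.46% upwards and 4.29% downwards. That split follows the scaling, since 60.1% of the calls were higher in De-HA as reported and 43.8% after quantile normalization. The 9 members tested were well above background on all 6 arrays. The 3 members were Bbc3, which rose 1.30-fold, and Gtse1 and Gdf15, which were 1.47-fold and 1.60-fold lower in De-HA. In the separate fit over probes, the same 3 member probes passed, against 9.75% of the 20253 probes tested. In 5 of 9 members the 3 De-HA values did not overlap the 3 FeMnSi values, 2 with De-HA above and 3 with De-HA below, against 39.1% of all genes. The median log2 difference of the 9 members was 0.03, beside 0.10 over all genes. After quantile normalization the median of all genes was 0.00, and the members' median was -0.13. At an unadjusted p under 0.05 there were 4 members, against 33.6% of all genes. In the fit with slide as a block, no member passed by limma, and 1.16% of all genes did. At an unadjusted p under 0.05 that fit had 3 members and 2904 of all 15535 genes. In bulk RNA, fewer cells of a type and less RNA per cell cannot be told apart.

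**Figure D1:**
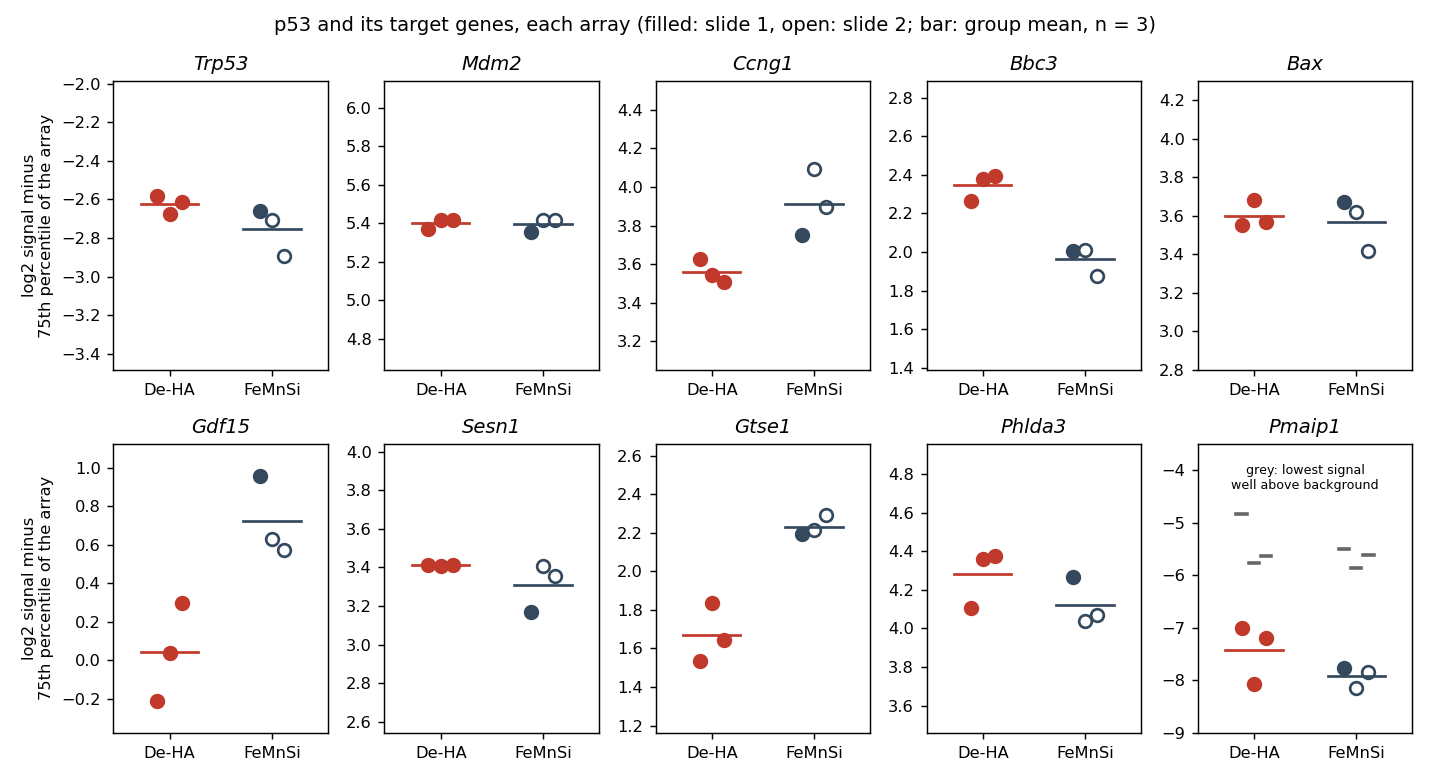
Log2 processed signal minus the array's log2 75th percentile (vertical axes) of the 10 member probes on each De-HA and FeMnSi array, with points filled for the first slide and open for the second, a bar at each group mean (n = 3) and, for Pmaip1, grey marks at the lowest signal well above background. Gtse1, Gdf15 and Ccng1 lie lower on all 3 De-HA arrays than on any FeMnSi array, Bbc3 lies higher, and every Pmaip1 point lies under the grey marks.

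The transcript of p53 itself gave a low signal on both scaffolds. The Trp53 probe had signals of 104, 102 and 95.1 in De-HA and 104, 110 and 95.2 in FeMnSi. The groups overlapped, and the log2 difference was 0.13 ± 0.10 (SE; limma, adjusted p = 0.354), with a 95% interval of -0.10 to 0.36 and a value of 0.04 within the first slide. A p that misses the threshold does not show equal levels, but this interval leaves out changes of the size seen in Gtse1 or Gdf15 in either direction.

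Mdm2, which marks p53 for degradation and is induced by it in a feedback loop, was read at signals of 25768, 27967 and 24883 in De-HA and 26800, 30764 and 30164 in FeMnSi. The raw signals overlapped, and after scaling the log2 difference was 0.00 ± 0.08 (SE; limma, adjusted p = 0.971), with an interval of -0.18 to 0.19 and 0.05 within the first slide. The scaling matters for this gene: quantile normalization gave -0.30 (limma, adjusted p = 0.134), outside that interval, and the test was missed in each case.

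Among cell cycle members, Gtse1 changed. Gtse1 encodes a microtubule-associated protein of G2 and S phase that binds p53 and takes it out of the nucleus, and it is transcribed most in proliferating cells. Its signals were 1804, 2337 and 1819 in De-HA and 2987, 3334 and 3458 in FeMnSi. Every De-HA array was below every FeMnSi array. The scaled log2 level was 1.67 ± 0.15 in De-HA and 2.23 ± 0.05 in FeMnSi (SD, n = 3 each), a difference of -0.56 ± 0.10 (SE; limma, adjusted p = 0.0252) with an interval of -0.81 to -0.31. Within the first slide the difference was -0.52, but with the slide as a block the adjusted p was 0.147 (limma). Leaving out 1 array at a time, Gtse1 passed only without De-HA 2 and without FeMnSi 1, with adjusted p between 0.0220 and 0.103 (limma).

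The promoter windows of Gtse1 are shown because this gene belongs at once to the p53 targets and to the genes expressed with mitosis, and letters known from both kinds of promoter stand in them. RefSeq (GRCm38.p6) gives 2 start sites for Gtse1, on the plus strand, and each window holds 250 bases before and 50 bases from the start site onwards, 5′ to 3′. Capitals mark matches to the p53 site (10-base elements of the p53 consensus, and pairs of them up to 13 bases apart with at most 2 mismatches), to the cell cycle homology region (the letters TTTGAA, with TTCGAA as a known variant, and with TTTAAA as another) and to the CCAAT box (read as ATTGG on the other strand). All were searched on both strands, and overlapping matches share capitals.
Gtse1 window 1, chr15:85859457-85859756: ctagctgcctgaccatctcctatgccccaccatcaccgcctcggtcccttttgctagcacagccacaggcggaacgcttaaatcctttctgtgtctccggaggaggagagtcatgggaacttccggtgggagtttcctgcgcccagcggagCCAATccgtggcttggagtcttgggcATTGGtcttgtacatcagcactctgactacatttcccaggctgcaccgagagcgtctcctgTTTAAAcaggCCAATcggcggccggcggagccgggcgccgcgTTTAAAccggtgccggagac
Gtse1 window 2, chr15:85859696-85859995: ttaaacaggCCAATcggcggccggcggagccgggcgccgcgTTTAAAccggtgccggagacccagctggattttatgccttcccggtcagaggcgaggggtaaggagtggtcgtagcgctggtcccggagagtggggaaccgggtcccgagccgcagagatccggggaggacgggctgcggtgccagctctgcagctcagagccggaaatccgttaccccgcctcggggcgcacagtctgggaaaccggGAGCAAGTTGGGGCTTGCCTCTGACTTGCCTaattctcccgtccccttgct
Positions are counted from 1 at the first transcribed base. In window 1, TTTAAA starts at -12 and 31, and the CCAAT box stands at -99, -73 and -2. In window 2, a pair of p53 elements with no gap and 1 mismatch starts at -1, and it overlaps a second pair that starts at 10. A p53 pair was found in 2.12% of all 32851 windows, the cell cycle homology letters in 28.8% and the CCAAT letters in 37.4%. A match is a description of letters and does not show that a factor binds there.

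Ccng1, the gene of cyclin G1, which recruits a phosphatase to Mdm2, had signals of 7691, 7631 and 6609 in De-HA and 8810, 12286 and 10521 in FeMnSi. All De-HA values lay below all FeMnSi values, and the FeMnSi array nearest to them was FeMnSi 1, on the same slide. The log2 difference was -0.36 ± 0.11 (SE; limma, adjusted p = 0.0816), and -0.19 within the first slide, so the gene did not pass. It did pass without FeMnSi 1, where slide and group coincide (limma, adjusted p = 0.0289), and after normexp background correction (limma, adjusted p = 0.0378).

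Among the apoptosis members, Bbc3 was the one that rose. Bbc3 encodes PUMA, a BH3-only protein that blocks the survival proteins of the BCL-2 family. Its signals were 2995, 3404 and 3062 in De-HA and 2625, 2901 and 2597 in FeMnSi, with every De-HA array above every FeMnSi array. The scaled log2 level was 2.35 ± 0.07 in De-HA and 1.96 ± 0.08 in FeMnSi (SD, n = 3 each), a difference of 0.38 ± 0.09 (SE; limma, adjusted p = 0.0417) with an interval of 0.17 to 0.59. The difference was 0.34 within the first slide. Bbc3 passed in 5 of 12 other settings and missed under quantile normalization (limma, adjusted p = 0.0613), and of the fits without 1 array it passed only without FeMnSi 1, the range being 0.0304 to 0.154.

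Bax, the BCL-2 family protein that opens the outer mitochondrial membrane, had signals of 7306, 8389 and 6908 in De-HA and 8326, 8830 and 7541 in FeMnSi. The groups overlapped, with a log2 difference of 0.03 ± 0.10 (SE; limma, adjusted p = 0.834), an interval of -0.21 to 0.27 and -0.07 within the first slide. The difference turned negative under quantile, median and normexp settings, and none of these passed. Phlda3, which encodes a repressor of AKT signalling, was likewise inside the spread of the arrays, at 10721, 13403 and 12103 in De-HA and 12582, 11818 and 11846 in FeMnSi. Its log2 difference was 0.16 ± 0.11 (SE; limma, adjusted p = 0.359), with 0.01 within the first slide and -0.05 after quantile normalization.

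The Pmaip1 probe, for the BH3-only protein NOXA, gave no measurable level. Its signals were 4.88, 2.42 and 3.97 in De-HA and 3.00, 2.55 and 3.07 in FeMnSi. The lowest signal among probes well above background was 21.8, 12.0 and 11.8 on those De-HA arrays and 14.5, 12.3 and 14.5 on those FeMnSi arrays. The reading error of the Pmaip1 spot was 60.3% to 99.6% of its signal, whereas that of every other member was at most 11.3%. Pmaip1 was therefore not tested, and no fold was formed between 2 groups below background.

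Bax and Cdkn1a are shown as further promoters that hold p53 pairs. Neither gene passed the test. Window 2 of Cdkn1a and the 3 RefSeq windows of Bbc3 hold no p53 match and are not shown. Whether such letters go with the differences between the groups was not tested. Capitals have the same meaning as for Gtse1; Bax is on the minus strand and Cdkn1a on the plus strand.
Bax, chr7:45466849-45467148: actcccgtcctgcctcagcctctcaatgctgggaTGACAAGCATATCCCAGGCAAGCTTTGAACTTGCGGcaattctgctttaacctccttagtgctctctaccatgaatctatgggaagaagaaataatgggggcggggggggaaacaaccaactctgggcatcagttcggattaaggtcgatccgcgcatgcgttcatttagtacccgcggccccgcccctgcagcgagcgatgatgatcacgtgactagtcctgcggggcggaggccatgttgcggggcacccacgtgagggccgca
Cdkn1a window 1, chr17:29090729-29091028: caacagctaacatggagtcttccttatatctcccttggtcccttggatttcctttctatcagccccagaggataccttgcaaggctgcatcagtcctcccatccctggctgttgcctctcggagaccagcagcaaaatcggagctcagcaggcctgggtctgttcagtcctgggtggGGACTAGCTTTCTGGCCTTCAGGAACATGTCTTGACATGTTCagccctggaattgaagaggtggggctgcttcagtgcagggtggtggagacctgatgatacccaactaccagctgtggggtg
In Bax the pairs start at -216 and -201, overlap each other and share letters with TTTGAA. In Cdkn1a they start at -73 (no mismatch, 12 bases apart) and at -51 (1 mismatch, no gap). Of the 9 members with a window, 3 held a p53 pair (Bax, Gtse1 and Sesn1), 6 held at least a single element, 4 held the cell cycle homology letters and 7 the CCAAT letters. Over all 27025 genes with a window the shares were 2.47%, 9.55%, 31.9% and 41.1% in the same order. The windows of Gdf15 and Phlda3 held no p53 match, which says only that these letters are not in these windows, since p53 also binds in introns and at a distance.

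Of the metabolic and secreted members, Gdf15 changed. Gdf15 encodes a secreted TGF-beta family factor that rises with p53 and with the ATF4 and CHOP stress response, and whose receptor in the hindbrain lowers food intake. Its signals were 539, 672 and 716 in De-HA and 1271, 1115 and 1052 in FeMnSi, without overlap. The scaled log2 level was 0.04 ± 0.25 in De-HA and 0.72 ± 0.21 in FeMnSi (SD, n = 3 each), a difference of -0.68 ± 0.16 (SE; limma, adjusted p = 0.0454) with an interval of -1.07 to -0.29. It was -0.92 within the first slide, where FeMnSi 1 gave the highest of the 6 signals. Gdf15 passed in 8 of 12 other settings, and of the fits without 1 array only without FeMnSi 1; adjusted p ran from 0.0434 to 0.122 (limma).

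Sesn1, a sestrin that restrains mTORC1, had signals of 6647, 6948 and 6209 in De-HA and 5880, 7642 and 7237 in FeMnSi. The raw signals overlapped, and after scaling the De-HA arrays stood at 3.41, 3.41 and 3.42 and the FeMnSi arrays at 3.17, 3.41 and 3.36. The log2 difference was 0.10 ± 0.09 (SE; limma, adjusted p = 0.464), with 0.24 within the first slide and -0.06 after quantile normalization. Sesn1 counts among the members with De-HA above only by the margin of a rounding step, and it did not pass.

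**Figure D2:**
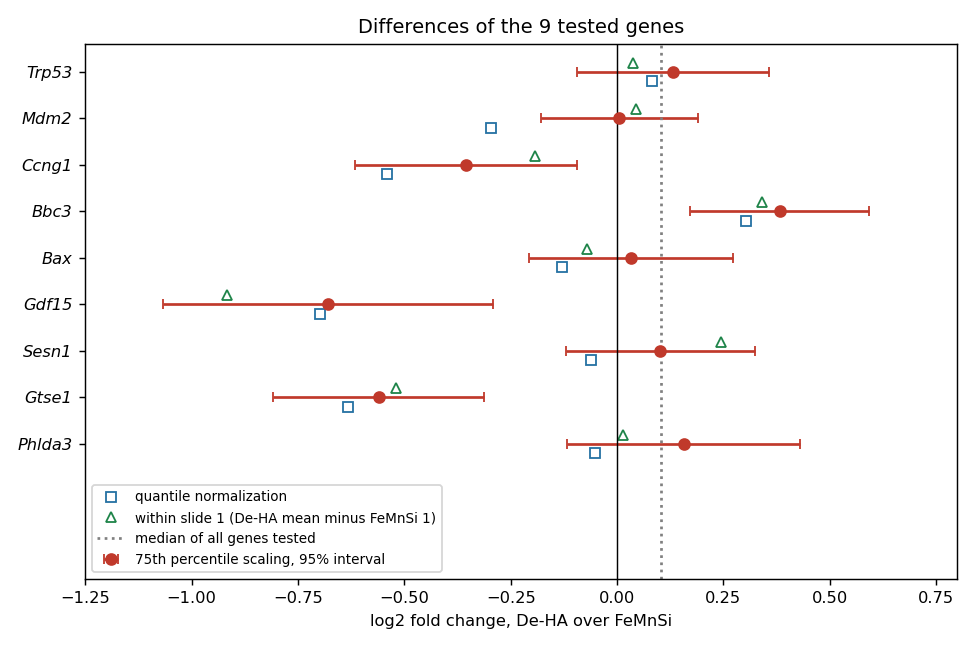
Log2 fold change, De-HA over FeMnSi (horizontal axis), of the 9 members tested, with its 95% interval, the value within the first slide (triangles), the value after quantile normalization (squares) and the median of all genes (dotted line). The intervals of Gtse1, Gdf15 and Ccng1 lie below 0 and that of Bbc3 above 0, and the quantile value of Mdm2, at -0.30, lies outside its interval of -0.18 to 0.19.

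Other genes of the pathway were set beside the members in lists by role, 132 entries in all, of which 121 were tested and 23 passed. Of those 23, 11 were genes repressed through p21 and DREAM (55% of that list), and 10.7% of all genes passed. The share was 15% in the p53 regulators, 23.1% in the arrest targets, 37.5% in the BCL-2 family and 10.5% in the metabolic targets. It was 6.25% in the ATF4 and CHOP targets and 0% in the apoptosis and DNA repair targets. The lists were chosen with earlier results of these data known, so these shares only describe them. In the p53 regulators, 1 of 20 tested genes rose and 2 fell, and the median log2 difference was 0.17 (0.05 within the first slide). Trp63, whose protein is the p53 relative that governs epithelial stem cells, was at 3678, 3882 and 3878 in De-HA and 1944, 1912 and 2071 in FeMnSi. It rose by 1.11 ± 0.10 on the log2 scale (SE; limma, adjusted p = 0.0027), with 1.05 within the first slide. Trp63 was the only gene of the pathway lists to pass once the slide was a block, and its second probe gave 0.39. Of the DNA damage kinases, Chek2 fell by 0.78 (limma, adjusted p = 0.0245) and Atm by 0.82 (limma, adjusted p = 0.0387), each with -0.58 within the first slide. The second Atm probe gave -0.56. Atr gave -0.06 (limma, adjusted p = 0.634). Mdm4, the Mdm2 partner that inhibits p53, gave -0.22 (limma, adjusted p = 0.490), and its second probe gave 0.36. Within the first slide Mdm4 gave 0.06. Chek1 and Sesn2 were not tested because their single spot was marked as an outlier on FeMnSi 3. With that spot kept, Chek1, also a damage kinase, gave 0.95 (limma, adjusted p = 0.0730).

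In the cell cycle arrest targets, 1 of 13 rose and 2 fell, with a median of -0.04. That median was -0.18 both after quantile normalization and within the first slide. Plk2, a polo-like kinase, rose by 0.49 (limma, adjusted p = 0.0362; first slide 0.61) but missed the threshold after quantile normalization (0.35; limma, adjusted p = 0.0869). Btg2, an antiproliferative gene, fell by 0.98 (limma, adjusted p = 0.0443), and Ckap2, a spindle gene, fell by 0.75 (limma, adjusted p = 0.0452). Their values within the first slide were -0.91 and -0.41. Cdkn1a, the p21 gene itself, was at 469, 708 and 610 in De-HA and 833, 750 and 656 in FeMnSi, and the groups overlapped. Its log2 difference was -0.18 ± 0.18 (SE; limma, adjusted p = 0.507), -0.43 within the first slide, and 0.23 by its second probe.

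No apoptosis target passed in limma among 16 tested, with a median of 0.07. That median was -0.11 after quantile normalization and -0.05 within the first slide. At an unadjusted p under 0.05 there were 3, against 33.6% of all genes. The smallest p belonged to the death receptor Tnfrsf10b, at 0.27 (limma, adjusted p = 0.0763), and the nuclease Aen, at 0.22 (limma, adjusted p = 0.110). Trp53inp1, a p53-induced nuclear protein, gave 0.05 (limma, adjusted p = 0.681), -0.17 after quantile normalization, and 0.37 by its second probe. In the BCL-2 family, 3 of 8 tested genes rose and none fell. These were the survival gene Bcl2l2 (0.81; limma, adjusted p = 0.0165; second probe 0.39), the BH3-only gene Bcl2l11 (0.38; limma, adjusted p = 0.0450) and the Bax relative Bok (0.49; limma, adjusted p = 0.0474). Only Bcl2l2 of these 3 also passed after quantile normalization, median scaling and in the series matrix. With slide as a block none of the 8 passed in limma. At an unadjusted p under 0.05 that fit had 2 of them, beside 2904 of all 15535 genes. The first slide gave 0.58 for Bcl2l2, 0.40 for Bcl2l11 and 0.26 for Bok. After normexp the Bcl2l11 difference was 0.094 (limma, adjusted p = 0.285). The Bcl2l11 signals were low, at 67.0, 62.0 and 55.4 in De-HA and 49.1, 57.2 and 51.8 in FeMnSi. Before scaling they overlapped. Bcl2l2 acts against cell death while Bcl2l11 and Bok act for it, as does Bbc3.

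Among metabolism, antioxidant and autophagy targets, 1 of 19 rose and 1 fell, with a median of 0.06. Sesn3, a sestrin like Sesn1, rose by 0.53 (limma, adjusted p = 0.0290), and Gls2, a mitochondrial glutaminase, fell by 0.53 (limma, adjusted p = 0.0252). Their values within the first slide were 0.44 and -0.51. The Sesn3 rise depends on the scaling: it was 0.28 after quantile normalization (limma, adjusted p = 0.117) and also missed the threshold after median scaling, after normexp and in the series matrix. Of 9 DNA repair targets none passed in limma, with a median of -0.15. At an unadjusted p under 0.05 there were 4, against 33.6% of all genes. Polh, a translesion polymerase, gave -0.48 (limma, adjusted p = 0.0597), and Fancc, a Fanconi anaemia gene, gave 0.46 (limma, adjusted p = 0.105). Since Gdf15 also answers to ATF4 and CHOP, 16 genes of that response were counted, Atf4 and the CHOP gene Ddit3 among them. None rose, 1 fell and the median was 0.00. After quantile normalization and after normexp the median was -0.14, beside 0.00 over all genes. The one that fell was Aldh1l2, a mitochondrial folate enzyme, by 0.42 (limma, adjusted p = 0.0330). Ddit3 gave -0.42 (limma, adjusted p = 0.123), every De-HA value lying below every FeMnSi value. Atf4 gave 0.35 (limma, adjusted p = 0.180), and 0.00 by its other probe. The first slide gave -0.44 for Aldh1l2, -0.23 for Ddit3 and 0.10 for Atf4. The part of this response in the Gdf15 difference was not tested.

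**Figure D3:**
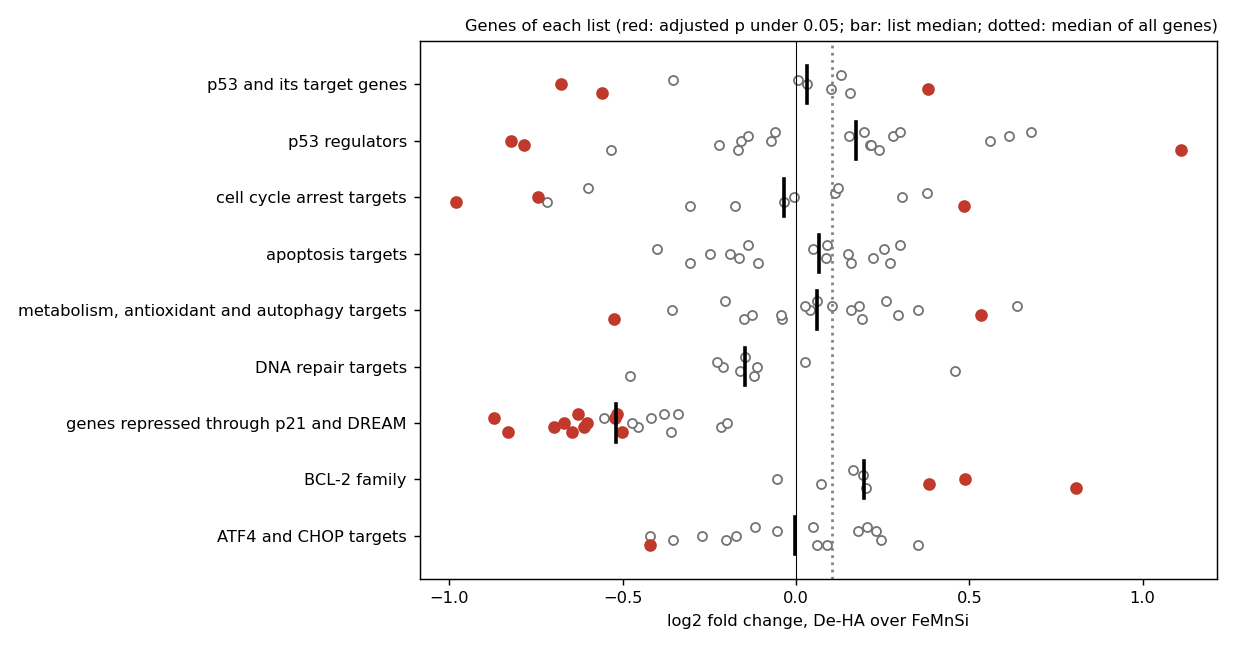
Log2 fold change, De-HA over FeMnSi (horizontal axis), of every tested gene in each list (rows), in red where the adjusted p was under 0.05, with a bar at the list median and a dotted line at the median of all genes. All 20 genes repressed through p21 and DREAM lie below 0, whereas each other list has genes on both sides of it.

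Genes that p53 represses through p21 and DREAM, the cyclins, kinases and spindle genes of G2 and M phase, were lower in De-HA. Of 20 tested, 11 fell and none rose, against 4.29% of all genes falling. All 20 differences were below 0, the median being -0.52. In 17 the De-HA values lay wholly below the FeMnSi values, whereas 39.1% of all genes did not overlap in either direction. Within the first slide the median was -0.50, and Aurkb went the other way, at 0.32. Prc1, a spindle midzone protein, was at 3670, 4607 and 3635 in De-HA and 7102, 8801 and 7758 in FeMnSi, a difference of -0.83 (limma, adjusted p = 0.0090). The mitotic cyclin Ccnb2 fell by 0.70 (limma, adjusted p = 0.0148), the topoisomerase Top2a by 0.67 (limma, adjusted p = 0.0204) and the S phase cyclin Ccna2 by 0.87 (limma, adjusted p = 0.0247). The first slide gave -0.77 for Prc1, -0.58 for Ccnb2, -0.79 for Top2a and -0.56 for Ccna2. The summed scaled signal of the list was 89.3 to 109 in De-HA and 135 to 139 in FeMnSi. Gtse1, at -0.56, lay near the median of this list, while Cdkn1a did not pass. With slide as a block none of the 20 passed in limma (median -0.50). At an unadjusted p under 0.05 that fit had 15 of them, beside 2904 of all 15535 genes. Without De-HA 3 none passed either, and 14 had an unadjusted p under 0.05, beside 3547 of all genes. When another single array was left out, 14 passed without FeMnSi 1, where slide and group coincide, and 1 to 3 without each of the rest. Of the 16 with a RefSeq window, 14 held the cell cycle homology letters and 13 the CCAAT letters, beside 31.9% and 41.1% of all genes; Aurkb, Ccna2, Cdc25c and Foxm1 had no entry.

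**Figure D4:**
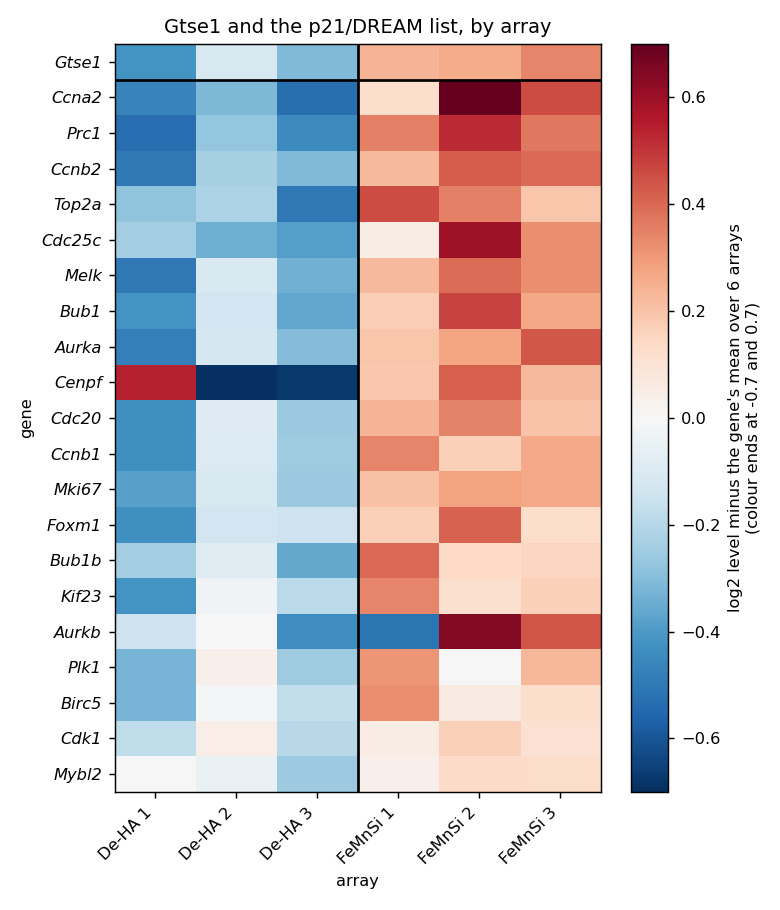
Log2 level of Gtse1 and of the 20 genes repressed through p21 and DREAM (rows) on each array (columns), as colour for the level minus the gene's mean over the 6 arrays, with colours ending at -0.7 and 0.7. Gtse1 is below its mean on all 3 De-HA arrays and above it on all 3 FeMnSi arrays, and among the cells that go against their group are Cenpf on De-HA 1, Aurkb on FeMnSi 1 and, by less, Cdk1 and Plk1 on De-HA 2.

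Some markers of other cell types also differed between the groups, and all these lists had low summed signals. The 7 macrophage markers tested had summed scaled signals of 4.12 to 4.58 in De-HA and 3.26 to 4.53 in FeMnSi. Of these 7, 2 were higher and 2 lower (57.1%, against 10.7% of all genes), and Fcgr1, Cd163 and Mrc1 were not kept as above background. Endothelial markers, 2 of 8 tested, summed to 0.802 to 0.886 in De-HA and 0.628 to 0.649 in FeMnSi. Of these 2, 1 was higher (50%, against 10.7% of all genes). Cdh5, Tek and Tie1 were read well above background on none of the 6 arrays. Adipocyte markers, 5 of 8 tested, summed to 0.259 to 0.271 in De-HA and 0.334 to 0.370 in FeMnSi. Of these 5, Fabp4 fell by 1.99 (limma, adjusted p = 0.0017), the other 4 had positive differences that did not pass, and the median was 0.29. Epithelial markers, 4 of 6, summed to 0.222 to 0.247 in De-HA and 0.189 to 0.217 in FeMnSi, and none of these 4 passed (0%, against 10.7% of all genes). Among the 12 osteoblast markers, 4 rose and 1 fell (41.7%, against 10.7% of all genes). The part of these cell type markers in the members' differences was not tested.

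The plot of adjusted p by setting shows how close the members lay to the threshold. In the 12 settings other than the reported one, Gtse1 and Gdf15 kept their negative sign in all 12 and passed in 8, and Bbc3 kept its positive sign in all 12 and passed in 5 (limma). Ccng1 stayed negative in all 12 and passed in 2. Each of these genes has a single probe without outlier spots. The intensity trend, the mean of a gene's probes, both changes of the probe filter, kept outlier spots and the replicate block therefore left their log2 differences unchanged. The slide block and slide 1 alone gave the same log2 difference as each other. The sign could thus change only through the scaling or the slide, and the 12 settings are not separate checks of it.

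**Figure D5:**
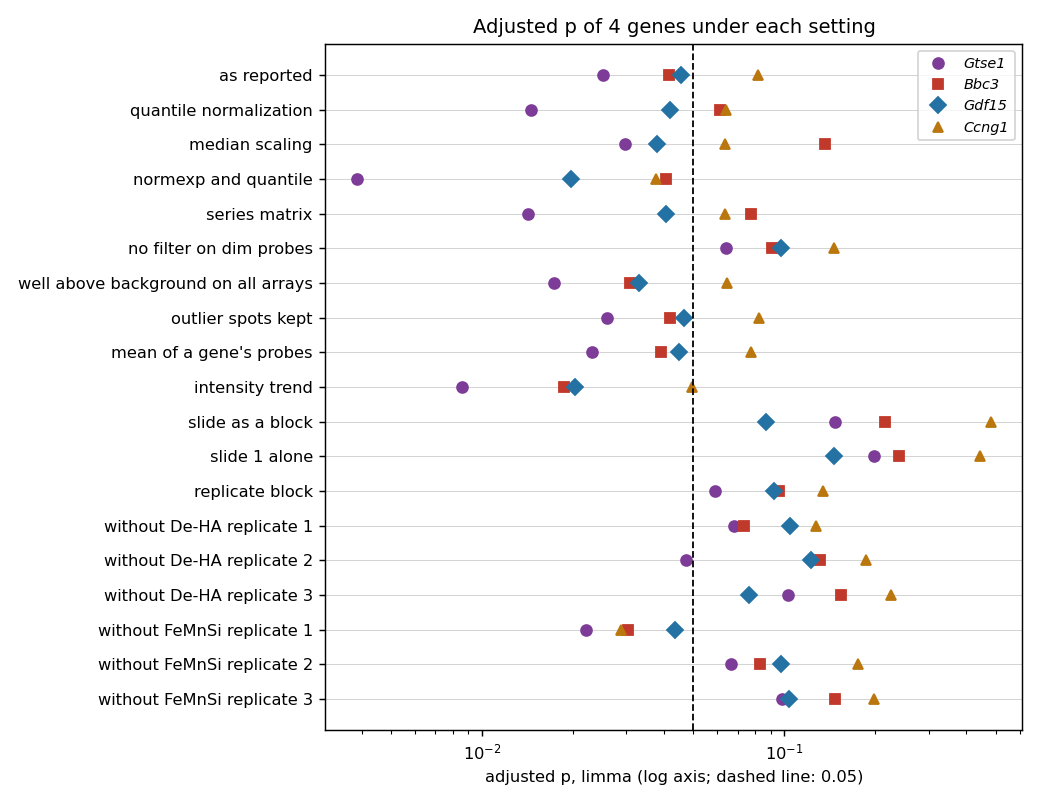
Adjusted p from limma (horizontal log axis, dashed line at 0.05) of Gtse1, Bbc3, Gdf15 and Ccng1 under the reported settings, the 12 other settings and the 6 fits without 1 array (rows). No point lies left of the line with the slide as a block or with the replicate block. All 4 genes lie left of it without FeMnSi 1, the fit in which slide and group coincide.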

How the data were processed

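Total RNA was labelled with Cy3 and hybridised to 1 Agilent array per sample, per the labels' protocols, and spots were quantified in Agilent Feature Extraction (version 11.0.1.1 in the submitters' processing notes). The deposited signals are linear intensity values per spot, background-subtracted within each array per the file headers. The authors' deposited series matrix holds log2 values, every array with a median of 5.77; the sources used here do not give its steps, and it served only as an alternative. Log2 signals were shifted by each array's 75th percentile over the non-control spots (1377 of 44397 spots were controls), spots marked as outliers were dropped, and repeat spots of a probe averaged. A probe was kept where 3 or more of 6 arrays read it well above background, and the brightest probe stood for a gene. Genes were named through RefSeq accessions (GRCm38.p6), for 27234 of 39429 probes. The comparison used limma's lmFit and eBayes (limma 3.58.1, R 4.3.3; Benjamini-Hochberg over 15535 genes, threshold 0.05), and the fit was tested on simulated data. The normexp alternative used the median spot signal, with an offset of 50. Slides were told by scan time. Beside the members, the text names up to 4 genes past the threshold with the smallest p in each pathway list, the 2 with the smallest p where none passed, and Cdkn1a, Mdm4, Sesn2 and Trp53inp1 whatever their result. Members and lists were chosen with earlier results of these data known. Promoter windows are RefSeq's, 300 bases each, and 9 of the 10 members had one. The number of arrays limits the precision.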

Additional observations from a re-analysis of the deposited data

How the results depend on the processing

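The 1669 genes past the threshold became 519 with no filter on dim probes, 180 with slide as a block and 36 on slide 1 alone, and 227 (without FeMnSi 3) to 4611 (without FeMnSi 1) when 1 array was left out. The 3 member genes and the 3 member probes became 0 with no filter and with slide as a block, and 0 to 4 when 1 array was left out. At an unadjusted p under 0.05 in limma there were 4 member genes with no filter, beside 5198 of all genes. With slide as a block there were 3, beside 2904 of all genes. The 23 genes of the other pathway lists became 4 with no filter and 1 with slide as a block, and 2 to 38 when 1 array was left out. Replicate numbers did not pair the samples: the deviations of same-numbered samples correlated at 0.01, -0.11 and 0.12, and not every sample correlated best with its own number. With the replicate block, 693 genes, 0 member genes, 0 member probes and 10 list genes passed in limma. An unadjusted p under 0.05 was found there for 4 member genes, beside 4781 of all genes. Scaling moved the share of calls that were higher in De-HA: 60.1% as reported, 43.8% after quantile normalization, 37.3% after median scaling, 45.2% after normexp and 41.3% in the series matrix. The log2 differences that changed sign all failed the test under limma in both forms. After quantile normalization these were Bax (-0.13), Mdm2 (-0.30), Phlda3 (-0.053), Sesn1 (-0.062) and Trp53inp1 (-0.17). After median scaling they were Bax (-0.054), Mdm2 (-0.082) and Trp53inp1 (-0.038), and after normexp Bax (-0.051), Mdm2 (-0.25), Phlda3 (-0.038), Sesn1 (-0.034) and Trp53inp1 (-0.21). In the series matrix they were Bax (-0.14), Mdm2 (-0.30), Phlda3 (-0.058), Sesn1 (-0.074) and Trp53inp1 (-0.17). Blocking on slide, like slide 1 alone, turned Bax (-0.070), Mdm4 (0.059) and Trp53inp1 (-0.0074). The mean of a gene's probes turned Cdkn1a (0.025) and Mdm4 (0.067). Without 1 array, Bax ranged from -0.043 to 0.084 and Mdm2 from -0.015 to 0.021. The causes were not tested. Signals near background limit what can be said of Pmaip1.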

Other observations

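Chek1, a DNA damage checkpoint kinase, and Sesn2, a sestrin, have a single spot each, which was marked as an outlier on FeMnSi 3. With outlier spots kept, the log2 difference, De-HA minus FeMnSi, was 0.95 ± 0.28 for Chek1 (SE; limma, adjusted p = 0.0730) and 0.40 ± 0.24 for Sesn2 (SE; limma, adjusted p = 0.265).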
